A study of Mus musculus with 4 samples.

Results

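The 39 genes described here act in the G2 and M phases of the cell cycle. They were taken by symbol from a list, and all 39 were found once each among the 32285 genes of the deposited matrices. They were followed in 4 droplet single-cell RNA libraries of mouse bone marrow cells sorted as LSK (Lin-Sca-1+Kit+), a sort gate for stem cells of the blood together with their first progenitors. Each library came from the pooled marrow of 5 mice aged 8 to 12 weeks, and there was 1 library per genotype. The Ikk2CA mice (Vav1-iCre/+, Ikk2-CA flox/+) carried an always-active version of Ikk2, a kinase upstream of NF-κB. The Jak2V617F mice (Vav1-iCre/+, Jak2 V617F flox/+) carried the activated kinase of myeloproliferative disease, and the double mutants carried Jak2 V617F flox/+ and Ikk2-CA flox/+ together, with Vav1-iCre/+. The controls were Vav1-iCre/+, so the recombinase, which acts throughout blood-forming cells, was present in all 4 groups. Per the series' design text the mice had also been crossed to an NF-κB reporter that makes EGFP. After the filter named in the series' design text, 9865 Ikk2CA, 14156 Jak2V617F, 5268 double-mutant and 8055 control cells remained.

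Cells of the double mutant had the highest median of counted molecules. UMIs (unique molecular identifiers, counted molecules) had a median of 17726 per Ikk2CA cell, 11106.5 per Jak2V617F cell, 24915 per double-mutant cell and 10606 per control cell. Between 12 and 60 cell barcodes were shared by any pair of libraries, at most 0.608% of a library. The pools also differed in Xist, the RNA that silences 1 X chromosome in female cells: 75.7% of Ikk2CA, 99.6% of Jak2V617F, 70.9% of double-mutant and 41.5% of control cells with at least 5000 UMIs had no Xist UMI. The sort markers were present at the RNA level in all libraries: at 5000 UMIs per cell, Kit was detected in 35.1% of Ikk2CA, 57.4% of Jak2V617F, 39% of double-mutant and 51.5% of control cells, and Ly6a (Sca-1) in 54.8% of Ikk2CA, 45% of Jak2V617F, 55.2% of double-mutant and 37.5% of control cells. Levels below are CPM, UMIs of a gene per 1000000 UMIs of the library. With 1 library per genotype no test between genotypes was possible, no p-value is given, and intervals are 95% and cover counting error only.

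To divide, a cell that has copied its DNA switches on cyclin-dependent kinase 1 with cyclins A and B, builds a spindle, attaches each chromosome to it at the kinetochore, separates the copies once the anaphase-promoting complex is released, and cuts itself apart at the central spindle. Many genes for these steps are transcribed late in the cycle, from promoters that hold CCAAT boxes and the cell cycle homology region, a short element bound by the DREAM complex, which keeps them silent in resting cells. Most blood stem cells rest, whereas the progenitors derived from them divide often.

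The sequences just before the start of a few members show these elements. RefSeq promoters of build GRCm38.p6 were matched for 34 of the 39 members, and the letters TTTGAA (the cell cycle homology region), its variants TTTAAA and TTCGAA, and CCAAT were searched on both strands. The 120 bases before the start are given for 6 members, 5′ to 3′ on the gene's own strand, with these letters or their reverse complements (TTCAAA and ATTGG) in capitals. Cdc20 (chr4:118437344-118437463, minus strand), Top2a (chr11:99024190-99024309, minus strand), Plk1 (chr7:122159315-122159434, plus strand) and Kif11 (chr19:37376262-37376381, plus strand) are shown because they hold both kinds of element there. Aspm (chr1:139454653-139454772, plus strand) and Birc5 (chr11:117849117-117849236, plus strand) are shown because they had the lowest and the highest ratio of a member to control; the first holds only CCAAT there and the other none of these letters.
Cdc20: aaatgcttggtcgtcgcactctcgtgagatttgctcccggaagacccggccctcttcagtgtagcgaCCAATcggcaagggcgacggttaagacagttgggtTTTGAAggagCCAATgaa
Top2a: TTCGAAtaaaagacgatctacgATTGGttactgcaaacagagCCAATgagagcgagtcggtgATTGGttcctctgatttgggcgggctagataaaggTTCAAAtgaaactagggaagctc
Plk1: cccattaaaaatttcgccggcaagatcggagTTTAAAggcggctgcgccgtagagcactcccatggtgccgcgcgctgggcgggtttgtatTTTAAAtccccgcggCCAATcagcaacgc
Kif11: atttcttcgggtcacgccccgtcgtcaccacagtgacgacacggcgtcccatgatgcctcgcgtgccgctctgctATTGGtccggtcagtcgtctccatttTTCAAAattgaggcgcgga
Aspm: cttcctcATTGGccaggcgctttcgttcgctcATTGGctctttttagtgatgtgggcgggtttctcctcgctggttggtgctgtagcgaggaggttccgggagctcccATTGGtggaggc
Birc5: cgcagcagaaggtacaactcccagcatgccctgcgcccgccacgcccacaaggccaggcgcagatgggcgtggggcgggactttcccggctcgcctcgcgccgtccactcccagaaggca

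Within 250 bases before the start, 24 of the 34 promoters (70.6%) held CCAAT, against 37.5% of the 27025 genes of the table. At least 2 CCAAT stood in 17 of the 34 (50%), against 11.5% of all genes. TTTGAA stood in 12 (35.3%), against 18.3%, and TTTGAA or a variant in 19 (55.9%), against 29.3%. When the 50 bases after the start were searched as well, TTTGAA was found in 24 of the 34 members (70.6%) and in 20.2% of all genes. The members' promoters had a higher median G and C content than all promoters, 61.6% against 52.4%, and these counts describe letters in a window, not bound sites.

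All 39 members were detected in every library, from 10.3 CPM (Cdc25c, double mutant) to 399 CPM (Top2a, Jak2V617F). Together they made up 3249 CPM in the Ikk2CA library, 2991 CPM in Jak2V617F, 2739 CPM in the double mutant and 2942 CPM in control. The Ikk2CA library had the highest level of 20 members, and the double mutant the lowest level of 27. Differences were small: only Aspm and Kif11 differed by 1.5-fold or more in any of the 5 comparisons made. Counting error was small too, but not below every difference. The 95% interval of a ratio spanned at most a factor of 1.17 between its bounds. Over control it excluded 1 for 30 of 39 members in Ikk2CA, 28 in Jak2V617F and 33 in the double mutant. For the double mutant it excluded 1 for 38 members over Ikk2CA and 39 over Jak2V617F. Of the 39 genes 23 overlap another annotated gene, 17 of them one on the opposite strand, and the sources used here do not give how the counting treated strand, so the levels of those genes are less certain. In bulk sums of a library, fewer cells with a transcript and less transcript per cell cannot be told apart.

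**Figure D1:**
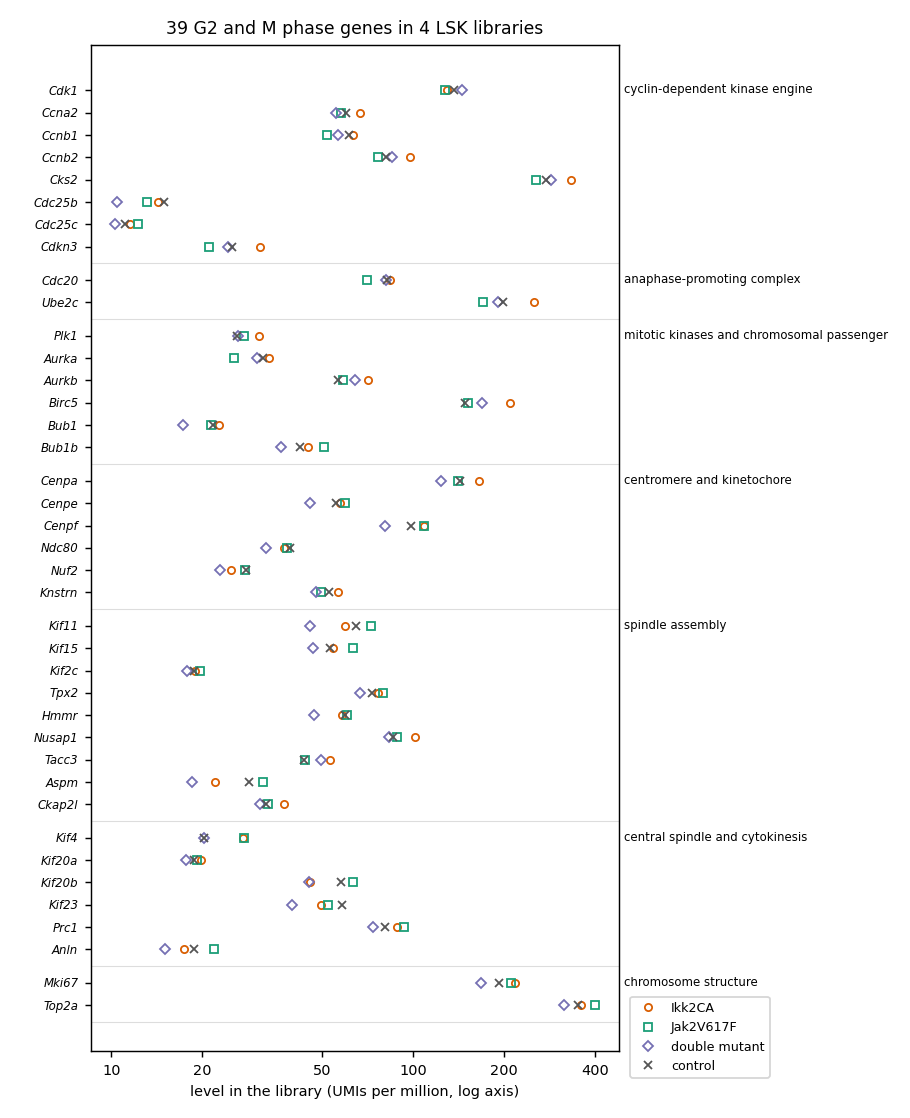
Level of each of the 39 genes in each library (CPM, log axis), grouped by role, with 1 symbol per library. The double-mutant symbol stands at the left of its row for 27 genes, and the 4 symbols of a gene lie close together beside the spread between genes.

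The plot of levels by gene shows these values. Against control, the Ikk2CA library had higher levels of mitotic kinases, of the chromosomal passenger complex and of Ube2c, and lower levels of Aspm and Kif20b. The ratio was above 1 for 29 of the 39 members, against 26.5% of the 8377 genes compared, and the members' median log2 ratio was 0.07. Over all genes compared the median was -0.23, so the members lay higher relative to it, and 37 of the 39 stood above it. None was 1.5-fold higher (4.00% of all genes were) and none was 1.5-fold lower (16.7% of all genes were).

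Birc5, which encodes survivin, the chromosomal passenger subunit that guides Aurora B to centromeres, was at 209 CPM in the Ikk2CA library and 149 CPM in control, a log2 ratio of 0.49. Its partner kinase Aurkb was at 70.9 CPM in Ikk2CA and 56.1 CPM in control (log2 ratio 0.34). Ube2c, the ubiquitin-conjugating enzyme that works with the anaphase-promoting complex, was at 251 CPM in Ikk2CA and 197 CPM in control (0.34). All 6 genes of the mitotic kinase and passenger group (Plk1, Aurka, Aurkb, Birc5, Bub1 and Bub1b) had a ratio above 1, with a median log2 ratio of 0.17. The intervals of Aurka and Bub1 included 1. Of the 8 genes of the cyclin-dependent kinase engine 6 were higher, with an interval that included 1 for Cdc25c. They were led by Cdkn3, a phosphatase that acts on cyclin-dependent kinases, at 31.1 CPM in Ikk2CA and 25.2 CPM in control. Cks2, a small subunit of the kinase, was at 334 CPM in Ikk2CA and 275 CPM in control, and cyclin B2 (Ccnb2) at 97.8 CPM in Ikk2CA and 81.4 CPM in control. Cdk1 itself was at 129 CPM in Ikk2CA and 136 CPM in control. Lower levels were found for Aspm, which focuses spindle poles, at 22.1 CPM in Ikk2CA and 28.6 CPM in control (log2 ratio -0.38). Kif20b, a kinesin of the late stages of division, was at 45.5 CPM in Ikk2CA and 57.7 CPM in control (-0.34).

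These whole-library ratios moved with the cell types present. Cells gated by markers as B cells (the gates are described below) made up 13.1% of the Ikk2CA library, 0.430% of Jak2V617F, 0.937% of the double mutant and 1.68% of control, and they had the highest member level of any gate. Gates with at least 20 cells in every library were therefore each given the share of UMIs they had in the control library. All other cells of at least 5000 UMIs, plasma-gated cells among them, were pooled as a single group at its control share. The mix within that group was left as it was in each library. Small gates entered too, such as the B cell gate of the double mutant with 48 cells. With this weighting the summed log2 ratio of Ikk2CA over control was -0.19 in place of 0.14. Under this weighting Birc5 had a log2 ratio of 0.04, Kif4 0.04 and Aspm -0.66. Leaving out the cells gated as B, plasma, neutrophil, T or NK, mast or basophil and erythroid gave a summed log2 ratio of 0.05. TMM factors, which scale to the bulk of genes, moved all ratios of Ikk2CA over control up by 0.25 and gave a summed log2 ratio of 0.39; Aspm and Kif20b stayed below a ratio of 1.

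The Jak2V617F library was close to control as a whole. The ratio was below 1 for 7 of 8 genes of the kinase engine. It was above 1 for 9 of 9 spindle assembly and 5 of 6 central spindle genes, not all beyond counting error. Of the 39 members 23 had a ratio above 1, against 49.1% of the 8405 genes compared, and the members' median log2 ratio was 0.02. None was 1.5-fold higher (1.02% of all genes) or 1.5-fold lower (1.37%). Of the kinase engine only Cdc25c, a phosphatase that activates the kinase, was higher, at 12.3 CPM in Jak2V617F and 11.1 CPM in control. Ccnb1 (cyclin B1) was at 51.6 CPM in Jak2V617F and 61.2 CPM in control (log2 ratio -0.25). Aurka, the kinase of spindle poles, was at 25.6 CPM in Jak2V617F and 31.8 CPM in control, the lowest ratio of a member (-0.32). Cdc20 and Ube2c, which activate and serve the anaphase-promoting complex, both had a log2 ratio of -0.22.

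All 9 spindle assembly genes had a ratio above 1 in Jak2V617F over control, though most by little: the median log2 ratio was 0.06. The intervals of Kif2c, Hmmr, Nusap1, Tacc3 and Ckap2l included 1, as did that of the central spindle gene Kif20a. Kif15, a kinesin that helps hold the poles apart, was at 63.1 CPM in Jak2V617F and 53.1 CPM in control, and Kif11, the main kinesin of spindle pole separation, at 72.5 CPM in Jak2V617F and 64.4 CPM in control. The highest ratio was that of Kif4, a chromosome-bound kinesin of the central spindle encoded on the X chromosome, at 27.5 CPM in Jak2V617F and 20.3 CPM in control (log2 ratio 0.44). The central spindle gene that was lower was Kif23, at 52.2 CPM in Jak2V617F and 58.1 CPM in control (-0.15). Kif4 was at the same level in Ikk2CA (27.3 CPM) as in Jak2V617F, and the double mutant (20.3 CPM) was at the level of control. Among cells with no Xist UMI, the log2 ratio of Kif4 was 0.33 in Ikk2CA over control, 0.40 in Jak2V617F over control and -0.06 in the double mutant over control.

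Members of the double mutant were lower than in control for 32 of 39 genes: 7 had a ratio above 1, against 26.9% of the 8294 genes compared. The members' median log2 ratio was -0.13, and the median over all genes was -0.24, so 27 of the 39 members stood above the bulk of genes. Aspm alone was 1.5-fold lower, at 18.5 CPM in the double mutant and 28.6 CPM in control (log2 ratio -0.63), where 15.9% of all genes were. None was 1.5-fold higher, where 2.24% of all genes were. Kif23, the motor of the centralspindlin complex, was at 39.7 CPM in the double mutant and 58.1 CPM in control (-0.55). Cdc25b, a phosphatase that starts mitosis, was at 10.5 CPM in the double mutant and 14.9 CPM in control (-0.52), and Kif11 was at 45.5 CPM in the double mutant and 64.4 CPM in control (-0.50). All 6 kinetochore genes (Cenpa, Cenpe, Cenpf, Ndc80, Nuf2 and Knstrn) were lower, with a median log2 ratio of -0.27. The members that were higher included Aurkb (64.0 CPM in the double mutant, 56.1 CPM in control), Tacc3, a spindle microtubule protein (49.5 CPM in the double mutant, 43.4 CPM in control), and Birc5 (168 CPM in the double mutant, 149 CPM in control). The direction of the sum depended on the scaling: the summed log2 ratio was -0.10 in CPM, 0.15 after TMM scaling and 0.22 after median-of-ratios scaling. These scalings added 0.25 and 0.32 to every log2 ratio of the double mutant over control, so the ratios of Aspm, Kif23, Cdc25b and Kif11 stayed below 1 while the kinetochore genes, all above -0.29, came close to 1 or above it.

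Against the Ikk2CA library the double mutant was lower for all members but Cdk1, which was at 145 CPM in the double mutant and 129 CPM in Ikk2CA. Thus 1 of 39 had a ratio above 1, against 54.7% of the 7752 genes compared. The members' median log2 ratio was -0.24 and that of all genes 0.02. Cdc25b (-0.45), Cenpf (-0.43), a kinetochore protein of late cycle, Kif4 (-0.43), Cenpa (-0.42), the histone of centromeres, and Ube2c (-0.40) were lowest. None was 1.5-fold lower (4.19% of all genes) or 1.5-fold higher (1.68%). The sum was lower under both other scalings, which added only 0.004 (TMM) and 0.045 (median-of-ratios) to every log2 ratio. Under median-of-ratios factors 2 members changed direction. But with gates at their control share the summed log2 ratio was 0.05 in place of -0.25, and 25 of the 39 members changed direction.

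Against the Jak2V617F library 11 of the 39 members of the double mutant had a ratio above 1, a share close to that of the 8247 genes compared (29%). By role these were 5 of 8 genes of the kinase engine, 2 of 2 of the anaphase-promoting complex, 3 of 6 of the mitotic kinases and passenger group, 1 of 9 of spindle assembly, and 0 of 6 kinetochore, 0 of 6 central spindle and 0 of 2 chromosome structure genes. The difference between roles was not tested. Aspm was at 18.5 CPM in the double mutant and 31.7 CPM in Jak2V617F (log2 ratio -0.77) and Kif11 at 45.5 CPM in the double mutant and 72.5 CPM in Jak2V617F (-0.67). These 2 were past 1.5-fold, as were 14.9% of all genes, and no member was 1.5-fold higher (1.65% of all genes were). Aurka was highest, at 30.4 CPM in the double mutant and 25.6 CPM in Jak2V617F (0.25). The sum was lower in CPM (log2 ratio -0.13) and higher with TMM (0.12) and median-of-ratios factors (0.19), which added 0.24 and 0.31 to every log2 ratio; Aspm and Kif11 stayed below a ratio of 1, and members just below it moved above.

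**Figure D2:**
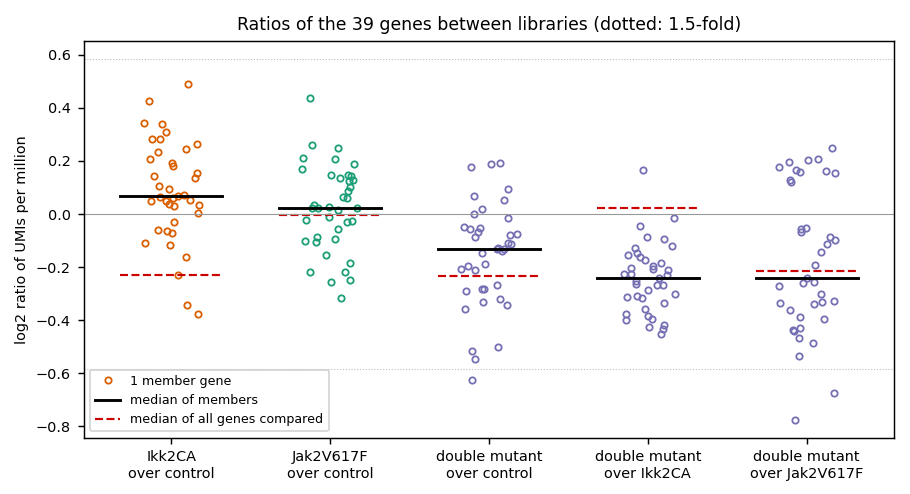
Log2 ratio of each of the 39 genes (circles) in the 5 comparisons, with the median of the members (black line), the median of all genes compared (red dashed line) and 1.5-fold (dotted lines). In the double mutant over Ikk2CA all but 1 circle lie below 0 while the median of all genes lies at 0.02.

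If the effects of the 2 alleles multiplied, the log2 level in the double mutant would equal the sum of both single mutants' minus control. The members were below this for 35 of 39 genes, where 46.4% of 8533 genes were, with a median departure of -0.29, against 0.02 over all genes. With gates at their control share 17 of 39 were below it, where 46.8% of 8510 genes were. The median departure was then 0.02 for the members and for all genes alike. In the whole libraries the departure was largest for Kif4 (-0.86), followed by Cenpf (-0.57), the checkpoint kinase Bub1b (-0.56) and Kif11 (-0.55). It was above 0 for Cdk1 (0.27), Aurka (0.19), Cdc20 (0.18) and Ccnb1 (0.07). This sum uses all 4 libraries once each and has no replicate error.

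Ratios also ran with transcript length, for members and for genes in general. In the double mutant over Jak2V617F, Spearman's rho between the log2 ratio and the length of the longest annotated transcript was -0.76 over the 39 members and -0.63 over 8244 genes. For the double mutant over control it was -0.61 over the members and -0.48 over 8291 genes, and in Ikk2CA over control -0.40 and -0.37. In Jak2V617F over control it was 0.64 over the members and 0.20 over 8402 genes. These correlations are across genes, which share their libraries and are not independent replicates, and the part of length in the counts by role was not tested: Aspm, Cenpf, Cenpe and Mki67, with transcripts of 9867, 11130, 7910 and 10061 bases, were among the longest, and Cks2, with 692 bases, was the shortest.

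How the members were spread over cells was measured after drawing each cell of at least 5000 UMIs down to 5000 UMIs, which left out 405 Ikk2CA, 1361 Jak2V617F, 146 double-mutant and 838 control cells. A cell with at least 10 of the 39 members detected is called high in members here, which is a range of a score and not a cell type. Such cells were 30.8% of Ikk2CA (95% Clopper-Pearson interval 29.9 to 31.8), 26.4% of Jak2V617F (25.7 to 27.2), 25.4% of double-mutant (24.2 to 26.6) and 21.3% of control cells (20.3 to 22.2). Without the draw the shares were 47.6% in Ikk2CA, 37.2% in Jak2V617F, 50.1% in the double mutant and 29.6% in control. Drawn to 8000 UMIs, which leaves out more shallow cells, 38.3% of Ikk2CA and 42.9% of Jak2V617F cells were high, so the order of these libraries depended on the depth chosen. Depth moved with the score: high cells had a median of 24492 UMIs in Ikk2CA, 18584 in Jak2V617F, 37041 in the double mutant and 19858 in control, and the other cells 15922 in Ikk2CA, 10023.5 in Jak2V617F, 21981 in the double mutant and 10289.5 in control. The cells just inside the limit, with exactly 10 members, were 223 in Ikk2CA, 269 in Jak2V617F, 123 in the double mutant and 99 in control, and those just outside, with 9, were 246 in Ikk2CA, 315 in Jak2V617F, 152 in the double mutant and 117 in control.

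Cells among the 3865 with the highest doublet score were somewhat more frequent among high cells than among the others, at 10.7% against 7.38% in Ikk2CA, 17.5% against 13.4% in Jak2V617F, 7.16% against 4.11% in the double mutant and 10.9% against 7.67% in control. Without them 25.5% of Jak2V617F cells were high, in place of 26.4%.

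High cells held most of the member transcripts, which follows in part from the rule, since the members define these cells. Of all UMIs they held 39.4% in Ikk2CA, 38.2% in Jak2V617F, 34.9% in the double mutant and 32.6% in control. They carried 82.6% of the member UMIs of Ikk2CA, 81.3% in Jak2V617F, 76.8% in the double mutant and 83.3% in control. The member level in high cells was 7399 CPM in Ikk2CA, 6736 CPM in Jak2V617F, 6175 CPM in the double mutant and 7900 CPM in control. In the other cells it was 736 CPM in Ikk2CA, 695 CPM in Jak2V617F, 743 CPM in the double mutant and 580.0 CPM in control. Control cells thus showed the widest gap, with the largest ratio of high over other cells for 38 of the 39 members. A share of double-mutant high cells above that of control stood beside a CPM sum below it, so no order is read between those libraries. With gates at their control share, 21.1% of Ikk2CA and 23.1% of double-mutant cells were high.

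At the top of the range, cells with 20 or more members detected were 11.6% of Ikk2CA, 9.25% of Jak2V617F, 6.99% of double-mutant and 9.57% of control cells. The ratio of the level in high cells over that in other cells was largest for Ube2c, at 32.0 in Ikk2CA, 29.1 in Jak2V617F, 29.4 in the double mutant and 40.0 in control. For Hmmr, a spindle protein, it was 22.6 in Ikk2CA, 21.4 in Jak2V617F, 18.3 in the double mutant and 34.3 in control. It was small for Cks2, at 4.05 in Ikk2CA, 4.26 in Jak2V617F, 3.8 in the double mutant and 5.45 in control, a gene with RNA outside the high cells too. These ratios follow in part from the rule, since the members themselves define high cells. A UMI in a cell can also come from free RNA, and its part was not tested. Plasma cells are a type that has as a rule left the cycle. Among the 310 Ikk2CA cells gated as such, Top2a was detected in 19% at 5000 UMIs, against 50.2% of all Ikk2CA cells. Mki67 was detected in 19% against 38.1%, and Ube2c in 8.39% against 26.6%. The undrawn median depths were 23842.5 UMIs in the gated cells and 17726 in all kept Ikk2CA cells. The latter include 405 cells under 5000 UMIs, which the gate leaves out. Of the gated cells 7.74% were high in members, and 2.68% when 4 markers were asked for, so the gate was not free of high cells.

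The members differed in how few other members their cells held. For each gene the cells were ranked by how many of the other 38 members they held, and its detection in cells with 5 to 9 others was divided by that in cells with 20 or more. This ratio was highest for Top2a, which untangles DNA (median over the libraries 0.70, range 0.69 to 0.74), Cks2 (0.60), the proliferation marker Mki67 (0.53), Cdk1 (0.53), Birc5 (0.51), Kif15 (0.49) and Aurkb (0.43). It was lowest for Plk1, the kinase that drives entry into mitosis (0.07, range 0.04 to 0.12), Cdc25c (0.09), Cdc25b (0.10), Hmmr (0.11), Aspm (0.11) and Aurka (0.12). The ratio is no measure of time by itself: in cells with 20 or more others Top2a (96.9% to 98.4% over the libraries) and Cks2 (97.1% to 98.2%) were found in nearly all cells, and in cells with 0 or 1 other member Cks2 was already found in 30.3% to 37.2% and Top2a in 18.0% to 22.1%, so level and background enter it. Plk1 was detected in 2.89% of Ikk2CA, 3.01% of Jak2V617F, 5.12% of double-mutant and 1.75% of control cells with 5 to 9 others. In cells with 20 or more others it was detected in 45.5% of Ikk2CA, 44.8% of Jak2V617F, 42.7% of double-mutant and 42.5% of control cells. Cyclin A2 (Ccna2), which acts earlier in the cycle than the B cyclins, had a median ratio of 0.34 (range 0.29 to 0.43). It was 0.27 for Ccnb2 (0.22 to 0.36) and 0.16 for Ccnb1 (0.14 to 0.20). The ranges of Ccna2 and Ccnb2 overlapped, and in Ikk2CA Ccnb2 (0.36) stood above Ccna2 (0.34).

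**Figure D3:**
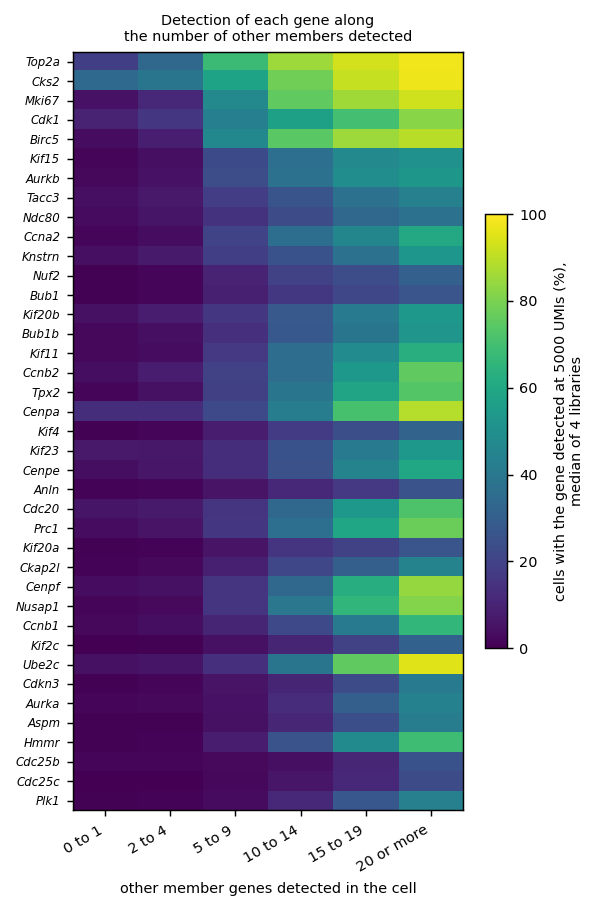
Percent of cells in which each gene was detected at 5000 UMIs (colour, median of the 4 libraries), by the number of other members detected in the cell. Top2a, Cks2, Mki67, Cdk1 and Birc5 (top rows) were already frequent in cells with 5 to 9 other members, while Plk1, Cdc25c and Cdc25b (bottom rows) were rare there and most frequent in cells with 20 or more.

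Genes outside the list followed the same axis. The summed level of 36 S phase genes peaked in cells with 5 to 9 members, at 4359 CPM in Ikk2CA, 4595 CPM in Jak2V617F, 4346 CPM in the double mutant and 4747 CPM in control. It was lower in cells with 20 or more members, at 2598 CPM in Ikk2CA, 1925 CPM in Jak2V617F, 1673 CPM in the double mutant and 2147 CPM in control. By contrast, the summed level of 47 other G2 and M phase genes climbed along the whole range in all libraries. It reached 10863 CPM in Ikk2CA, 8387 CPM in Jak2V617F, 8815 CPM in the double mutant and 10089 CPM in control. This sum weighs abundant genes most: Hmgb2 alone was at 1811 CPM in the whole Ikk2CA library and 1252 CPM in the whole control library. Single genes of the list were not followed along the range. The non-members with the highest ratio of high over other cells included Pimreg (lowest ratio over the libraries 10.4), Kif22 (6.75), the histone genes Hist1h2ab (5.96) and Hist1h3c (5.75), Racgap1 (5.95), Cdca8 (5.62), Cdca3 (5.53), Knl1 (5.19), Spc25 (4.91), Tuba1c (4.85) and Incenp (4.78). Knl1 and Spc25 encode kinetochore parts, Cdca8 and Incenp passenger subunits, and Racgap1 the partner of Kif23 in centralspindlin.

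**Figure D4:**
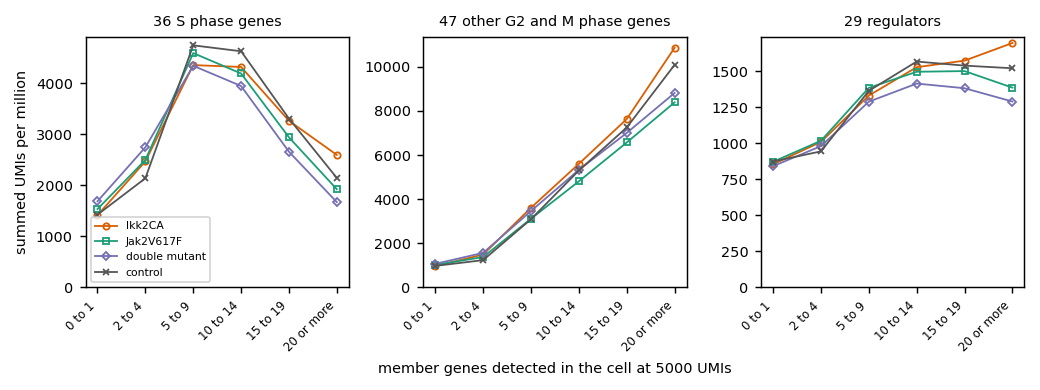
Summed level (CPM) of S phase genes, other G2 and M phase genes and regulators in cells grouped by the number of members detected at 5000 UMIs, 1 line per library. S phase genes peaked in cells with 5 to 9 members and other G2 and M phase genes in cells with 20 or more, in every library.

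Between libraries the other lists did not simply repeat the members. Of the other G2 and M phase genes 43 could be compared in the double mutant over Ikk2CA. Among them 10 had a ratio above 1, against 54.7% of all genes compared, and the median log2 ratio was -0.14. In Ikk2CA over control 20 of 43 had a ratio above 1 (median -0.04), against 26.5% of all genes. In Jak2V617F over control 25 of 44 did (0.04), against 49.1%. In the double mutant over control 13 of 43 did (-0.18), against 26.9%. Cenpw, a kinetochore gene, was at 106 CPM in Ikk2CA, 70.1 CPM in Jak2V617F, 116 CPM in the double mutant and 63.3 CPM in control. Of the 36 S phase genes 32 had a ratio above 1 in the double mutant over control, with a median of 0.08. In that comparison 7 of the 39 members and 26.9% of all genes did. Of 29 regulators, 17 of 26 compared had a ratio above 1 in Ikk2CA over control (26.5% of all genes). In Jak2V617F over control 16 of 25 did (49.1%), and in the double mutant over control 10 of 24 (26.9%). Cdkn1a, the p21 inhibitor of cyclin-dependent kinases, was at 42.6 CPM in Ikk2CA, 18.8 CPM in Jak2V617F, 14 CPM in the double mutant and 12.5 CPM in control. The regulator Rbl2 was at 16.2 CPM in Ikk2CA, 27.1 CPM in Jak2V617F, 14.5 CPM in the double mutant and 27.0 CPM in control. E2f2, an activator of cell cycle genes, was at 14.8 CPM in Ikk2CA, 8.38 CPM in Jak2V617F, 5.57 CPM in the double mutant and 9.58 CPM in control.

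Cell types were approached with gates: at 5000 UMIs a cell was placed with the marker list of which the largest part was detected, with at least 3 markers, and no gate marker was a member. The list of monocyte markers was led by dendritic genes in its cells and is not used as a type. The B cell gate (led by Vpreb3, Vpreb1 and Ebf1) had the largest share of high cells, 63.1% of 1235 Ikk2CA cells, 65.5% of 55 Jak2V617F cells and 78.5% of 121 control cells. The double mutant had 48 such cells, too few for a value. The erythroid gate (led by globin genes and Car1) followed, with 44.9% in Ikk2CA, 49.8% in Jak2V617F, 45.1% in the double mutant and 46.0% in control. The stem cell-like gate (led by genes such as Esam and Mllt3) had 10.7% in Ikk2CA (8.39 to 13.4), 18.5% in Jak2V617F (17.1 to 20.05), 15.6% in the double mutant (13 to 18.5) and 12.1% in control (10.4 to 13.9), and the plasma cell gate of Ikk2CA 7.74%. The granulocyte-monocyte gate (led by Elane and Ctsg) and the megakaryocyte gate (led by Pf4) lay between, from 29.5% to 37.8%.

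**Figure D5:**
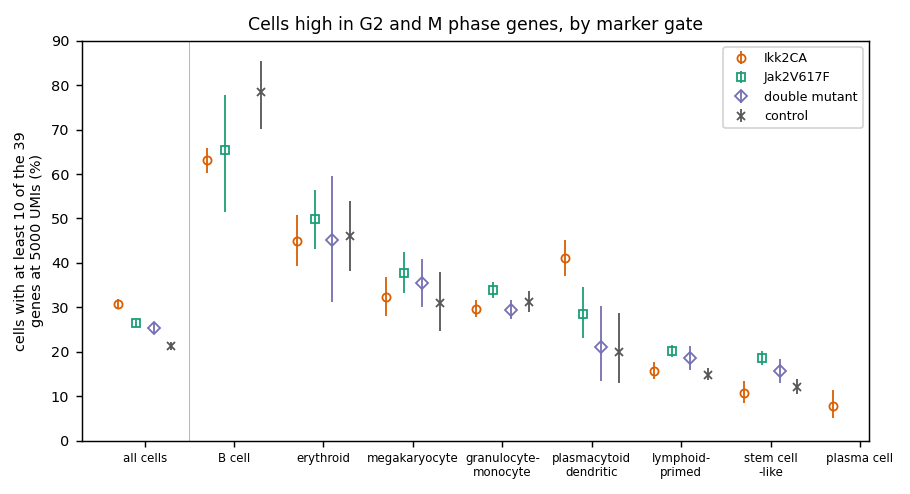
Percent of cells with at least 10 of the 39 genes detected at 5000 UMIs, for all cells and within marker gates, by library, with 95% Clopper-Pearson intervals (counting error only). Gates with under 50 cells in a library have no point. The B cell gate is highest and the stem cell-like gate lowest of the gates with 3 or more libraries, and the plasmacytoid dendritic gate of Ikk2CA stands above the other 3 libraries.

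Among stem cell-like cells the members were higher in Jak2V617F and lower in Ikk2CA. Their summed level was 1670 CPM in Ikk2CA, 2583 CPM in Jak2V617F, 2134 CPM in the double mutant and 2025 CPM in control. In Jak2V617F over control 37 of 39 members had a ratio above 1, against 47.8% of all genes of the gate, with a median log2 ratio of 0.36 against -0.01. The other scalings use whole-library factors and added only 0.006 to every log2 ratio here. They could hardly move this count, which stayed at 37. Within this gate Top2a was at 335 CPM in Jak2V617F and 238 CPM in control, Mki67 at 184 CPM in Jak2V617F and 131 CPM in control, and Kif11 at 62.0 CPM in Jak2V617F and 44.1 CPM in control. In Ikk2CA over control 3 of the 38 members compared had a ratio above 1, against 29.3% of all genes, with a median log2 ratio of -0.35 against -0.17. The summed log2 ratio there was -0.28 in CPM, -0.03 with TMM and -0.00 with median-of-ratios factors, and it was -0.11 relative to the median of all genes of the gate. In the double mutant over control 21 of 39 had a ratio above 1, against 27.7% of all genes, with a median of 0.06 against -0.21.

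The order of the 4 libraries in this gate was the same when 4 markers were asked for, with 7.21% high cells in Ikk2CA, 16.8% in Jak2V617F, 13.8% in the double mutant and 9.92% in control. The gate held 626 cells (6.62%) of Ikk2CA, 2750 (21.5%) of Jak2V617F, 712 (13.9%) of the double mutant and 1350 (18.7%) of control. The S phase level of the gate, as a mean over cells, had the same order as the members, 1432 CPM in Ikk2CA, 2150 CPM in Jak2V617F, 1907 CPM in the double mutant and 1737 CPM in control.

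In the lymphoid-primed gate (led by Wfdc17, Dntt and Flt3) Jak2V617F again stood above control, by less. The members had a ratio above 1 for 5 of 39 in Ikk2CA (26.3% of all genes), 26 of 39 in Jak2V617F (47.1%) and 12 of 39 in the double mutant (26.9%), each over control. Medians of members and of all genes were -0.26 and -0.21 in Ikk2CA, 0.09 and -0.01 in Jak2V617F, and -0.09 and -0.22 in the double mutant. With TMM factors the counts were 19 in Ikk2CA, 26 in Jak2V617F and 29 in the double mutant. With median-of-ratios factors they were 20, 26 and 32 in the same order. In the granulocyte-monocyte gate they did so for 4 of 39 in Ikk2CA (25.1% of all genes), 20 of 39 in Jak2V617F (49.0%) and 3 of 39 in the double mutant (26.8%), each over control. The median log2 ratios of the members and of all genes were -0.19 and -0.21 in Ikk2CA, 0.00 and -0.00 in Jak2V617F, and -0.27 and -0.22 in the double mutant.

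The plasmacytoid dendritic gate had its highest member level in Ikk2CA and the B cell gate in control. In the plasmacytoid dendritic gate (led by Ly6d and Siglech) the summed level was 3984 CPM in 609 Ikk2CA cells, 3386 CPM in 252 Jak2V617F cells, 2467 CPM in 100 double-mutant cells and 3060 CPM in 110 control cells. When 4 markers were asked for, 526 Ikk2CA, 71 Jak2V617F, 42 double-mutant and 42 control cells remained. The double mutant and control then had too few cells for a value, so their comparisons with Ikk2CA could not be checked at that gate. Birc5 in this gate was at 296 CPM in Ikk2CA and 140.0 CPM in control, the highest ratio of a member (log2 1.08). In the double mutant over Ikk2CA 0 of 39 members had a ratio above 1 in this gate, against 48.1% of all genes, with a median of -0.72 against -0.02. The other scalings added only 0.004 and 0.045 to every log2 ratio, and the highest member, Cdk1, was at -0.095. They could therefore not change this count. In the B cell gate the summed level was 6302 CPM for Ikk2CA, 6189 CPM for Jak2V617F and 8613 CPM for control. Of the 39 members 1 had a ratio above 1 there in Ikk2CA over control, against 30.8% of all genes, and 1 in Jak2V617F over control, against 43.1%, both with a median log2 ratio of -0.45, against -0.16 and -0.07 for all genes of the gate. With TMM factors 34 were lower in Ikk2CA over control and 38 in Jak2V617F over control. These factors added 0.25 to every log2 ratio in the first comparison but only 0.006 in the second. Cdk1 in B-gated cells was at 254 CPM for Ikk2CA, 293 CPM for Jak2V617F and 402 CPM for control.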

How the data were processed

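Gene by cell matrices of UMI counts, not normalized, were deposited by the authors; they were made with Cell Ranger 4.0.0 per the file headers, while the design text gives 3.0.1, and on mm10 per the submitters' processing notes. Cells with 500 to 7500 genes and under 10% mitochondrial UMIs were kept, as in the authors' stated filter (37344 of 41674 barcodes). Doublet calls were not removed; the 3865 cells with the highest scrublet score (scanpy 1.11.5) were left out as an alternative. Counts were summed per library and gate and scaled to CPM (Python 3.11.15, numpy 2.4.6, scipy 1.17.1, pandas 2.3.3). Ratios were taken for genes of at least 10 CPM in either library, with 1.5-fold as the size rule in place of a test, since each genotype has 1 library. Intervals are exact (Poisson, conditional binomial, Clopper-Pearson) at 95% and cover counting error only. TMM factors (edgeR 4.0.16) and median-of-ratios factors (DESeq2 1.42.0, R 4.3.3) were alternatives, used for scaling and not for tests. The ratio step was tested on simulated data. All members may be named; of other lists, up to 6 genes with the largest ratio, and the 12 non-members with the highest ratio of high over other cells, of which 1 is not reported here. Members and lists were chosen with earlier results of these data known. Gene overlaps come from GENCODE vM21.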

Additional observations from a re-analysis of the deposited data

Results flagged for a closer look

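Some pairs of marker gates moved in opposite directions under the same comparison. The values are log2 ratios of the summed member level minus the median log2 ratio of all genes of the gate, and the difference between gates was not tested, since each value rests on 1 library per genotype. In Ikk2CA over control the plasmacytoid dendritic gate stood at 0.62 and the B cell gate at -0.29. In Jak2V617F over control the stem cell-like gate stood at 0.36 and the B cell gate, with 55 Jak2V617F cells, at -0.41. In the double mutant over Ikk2CA the stem cell-like gate stood at 0.38 and the plasmacytoid dendritic gate, with 100 double-mutant cells, at -0.67.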

How the results depend on the processing

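Of the values recomputed under an alternative, 151 stayed within counting error or within 1.5 times the count and 81 moved. The cause was not tested. Some of the 151 could not move. Every member was above 10 CPM, so dropping the minimum level changed no count, and a count of 0 at 1.5-fold stays 0 at 2-fold. No paired analysis was possible because each genotype has 1 library and the labels pair no samples. The summed log2 ratio of Ikk2CA over control (0.14) was 0.39 with TMM and 0.42 with median-of-ratios factors, 0.14 with all barcodes, 0.30 as a mean over cells, 0.050 without lineage-gated cells, -0.19 with gates at their control share, 0.10 in cells with no Xist UMI and 0.13 without the cells of highest doublet score. That of Jak2V617F over control (0.02) was -0.053 as a mean over cells, 0.075 without lineage-gated cells and 0.048 with gates at their control share. That of the double mutant over control (-0.10) was 0.15 and 0.22 with TMM and median-of-ratios factors, -0.090 with all barcodes, -0.081 as a mean over cells, -0.050 without lineage-gated cells, -0.14 with gates at their control share and -0.12 without the cells of highest doublet score. That of the double mutant over Ikk2CA (-0.25) was -0.20 with median-of-ratios factors and also in cells with no Xist UMI, -0.23 with all barcodes, -0.38 as a mean over cells, -0.10 without lineage-gated cells and 0.051 with gates at their control share. That of the double mutant over Jak2V617F (-0.13) was 0.12 and 0.19 with TMM and median-of-ratios factors, -0.11 with all barcodes, -0.028 as a mean over cells, -0.19 with gates at their control share and -0.14 without the cells of highest doublet score. In Ikk2CA over control the members at least 1.5-fold higher (0) were 3 with TMM factors, 4 with median-of-ratios factors and 2 as a mean over cells, and those lower (0) were 2 with gates at their control share. Those lower in the double mutant were 2 over Ikk2CA as a mean over cells (0), 1 over Jak2V617F as a mean over cells (2), and 0 over Jak2V617F with both factors and at 2-fold. Over control (1) they were 0 with both factors, with gates at their control share and at 2-fold, and 2 among cells lacking Xist UMIs. The share of high cells was 22.3% in Ikk2CA, 17.3% in Jak2V617F, 16.3% in the double mutant and 16.2% in control at 3000 UMIs, and 38.3%, 42.9%, 33.4% and 30.1% of the same libraries at 8000 UMIs. With at least 7 members it was 38.7% in Ikk2CA, 33.9% in Jak2V617F, 34.6% in the double mutant and 26.5% in control, and with at least 13 members 24.2%, 20.3%, 19.1% and 17.3%. In cells with no Xist UMI it was 29.9% in Ikk2CA and 26.7% in the double mutant, without the cells of highest doublet score 25.5% in Jak2V617F, and with gates at their control share, an alternative chosen after seeing the data, 21.1% in Ikk2CA and 23.1% in the double mutant. With 4 markers per gate it was 7.21% in Ikk2CA, 16.8% in Jak2V617F and 9.92% in control for stem cell-like cells, and 35.9% in Jak2V617F and 31.8% in the double mutant for granulocyte-monocyte cells. Lymphoid-primed Jak2V617F cells without the highest doublet scores had 18.8%. The members below the product of both single mutants' ratios (35) were 17 with gates at their control share and 33 to 36 under the 7 other settings, all chosen after seeing the data. At 5000 UMIs 2750 shallower cells were left out of the shares.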
